A study of Homo sapiens with 96 samples.

Results

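The 60 genes described here were antisense lncRNAs, long noncoding transcripts read from the strand opposite to another gene, that were expressed in nuclei of hTERT-RPE1 cells. They were chosen by level: in nuclear nascent RNA, 64 of 1322 genes annotated as antisense had a mean of at least 1 RPKM over 12 libraries, out of 20695 genes in that table. All levels are in RPKM, a read count divided by gene length and by library size. ZFAS1, SNHG12, SNHG7 and LUCAT1 also reached that level and were left out by name. The level in nuclear nascent RNA therefore made the list and is given as a description only. Of those 12 libraries, 10 came from the S-phase windows described below, so genes high in them entered the list more easily. Comparisons of windows with asynchronous cells in nuclear nascent RNA are limited by this choice. The members just inside the threshold were AL603839.2 at 1.03 RPKM, TMEM44-AS1 at 1.02 and AC132192.2 at 1.02, and the antisense genes just outside were WDR11-AS1 at 0.994, AL117335.1 at 0.993 and AC127537.1 at 0.99.

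hTERT-RPE1 is a line of human retinal pigment epithelial cells immortalised with telomerase. RNA was measured in whole cells and in nuclei, each as nascent RNA, which is newly made, and as the input it was taken from. Each of these 4 kinds of RNA had 2 libraries from asynchronous cells and 2 from each of 5 S-phase windows, labelled T0-2, T2-4, T4-6, T6-8 and T8-10, after synchronisation with 400 uM mimosine for 22 h, which holds cells at the entry to S phase. Strand-specific libraries came from cells transfected with 130 to 150 pmol of LNA GapmeRs, modified oligonucleotides that direct cleavage of a target RNA, against LINC00704 (MANCR), LUCAT1, MIAT or as a control. The transfected cells were synchronised and taken at S0, S2, S4 and S6, with 2 libraries per point and arm, or were asynchronous, with 3 knockdown libraries against 2 control libraries. The labels do not say that libraries of a group came from separate cultures, so any p-value here reflects variation among libraries, which may be technical.

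Antisense lncRNAs often start close to the promoter of a coding gene and run away from it, or overlap its first exon head to head. Many are made at low levels and removed quickly in the nucleus by the exosome, while a few are stable and reach the cytoplasm. Some are studied as regulators of the coding gene they are named after, and some carry microRNAs in their introns or exons.

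Total reads in genes of known length lay between 6.39 and 28.6 M (megareads) per library in the window tables, between 9.11 and 23.4 M in synchronised transfected cells, and between 26.4 and 50.5 M in asynchronous transfected cells. The median antisense lncRNA had 25 to 340 reads in a library, so single values near 1 RPKM rest on few reads. Each targeted RNA was lower in its knockdown: MIAT was at 0.243 to 0.323 RPKM in synchronised controls and 0.0718 to 0.221 in its knockdown, LUCAT1 at 0.440 to 0.994 and 0.133 to 0.379, and LINC00704 at 1.89 to 4.04 and 0.550 to 1.61. Of the pigment epithelium genes looked up, the keratin gene KRT18 was at 4.63 to 72.6 RPKM over all tables. KRT8 reached 12.1 RPKM, MITF 1.72 and BEST1 0.819, while RLBP1, PMEL, TYR and RPE65 did not exceed 0.516, 0.412, 0.263 and 0.224 RPKM. PTPRC of blood cells did not exceed 0.0744 RPKM. HBB, a gene of red blood cells, reached 72.4 RPKM in whole-cell nascent T0-2 replicate 2.

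Of the 60 members, 36 were found in RefSeq (GRCh38.p14), 35 of them as lncRNAs and HMGA1P4 as a pseudogene. The names of 23 members have the form of a gene followed by AS, and for 21 of them that gene was a protein-coding gene of the tables, here called the partner. A further 9 members, known in the files by clone names, carry a current symbol that points to a coding gene. Both transcription starts were known for 21 pairs, of which 20 lay on opposite strands. In 10 of these 20 the starts were within 1000 bases, with 5 running apart and 5 overlapping head to head. The remaining pair, AC093673.1 (now FAM131B-AS2) and FAM131B, lay on the same strand in RefSeq.

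The stretch between the 2 starts is shown for 2 of the 3 most closely divergent members, because it is the only sequence both genes of a pair have in common as upstream DNA. KMT2E-AS1 (chr7:105010542-105014141, minus strand) and KMT2E start 64 bases apart. The stretch between them, chr7:105014142-105014204, is made largely of cgg repeats and held no match to any of the motifs searched on both strands: the TATA box TATAAA, the box with letters CCAAT, the GC box GGGCGG, the hypoxia core ACGTG and the cAMP response element TGACGTCA. AL731569.1, now WAPL-DT (chr10:86521947-86525101, plus strand), starts 155 bases from WAPL, which encodes a factor that releases cohesin from chromatin. The stretch chr10:86521793-86521946 held 2 CCAAT matches and 1 GC box, in capitals below, while 24.8% and 37.0% of 27305 RefSeq promoters of the same length hold a CCAAT or a GC box. The third, AC008771.1 (now FAM151B-DT), has 153 bases between its start and that of FAM151B with no match to any of these motifs, and is not printed. Both sequences are written on the strand of the antisense lncRNA.
KMT2E-AS1 to KMT2E: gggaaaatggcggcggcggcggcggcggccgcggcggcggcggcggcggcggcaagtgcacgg
AL731569.1 to WAPL: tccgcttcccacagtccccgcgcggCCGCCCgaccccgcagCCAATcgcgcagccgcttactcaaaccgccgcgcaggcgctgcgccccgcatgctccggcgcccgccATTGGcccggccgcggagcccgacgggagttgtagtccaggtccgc

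Over promoter windows from 250 bases before to 50 bases after the start, known for 27 members, the GC box was found in 16 (59.3%, against 44.6% of 27305 promoters). CCAAT was found in 8 (29.6% against 35.7%), TATAAA in 4 (14.8% against 12%), ACGTG in 6 (22.2% against 21.6%) and TGACGTCA in 0 (against 1.98%). These matches describe the letters in the windows and were not tested.

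A pair of members are hosts of microRNAs on their own strand, and the mature sequences are shown with the seed, bases 2 to 8, in capitals because the seed is the part that pairs with targets. AC020916.1, now MIR23AHG (chr19:13834516-13842918), holds MIR23A, MIR27A and MIR24-2. The seeds of miR-23a-3p and miR-27a-3p both begin with UCACA and then differ, and that of miR-24-3p is unlike both. DLEU2 (chr13:49982549-50125541) holds MIR15A and MIR16-1, whose main products share the seed AGCAGCA.
hsa-miR-23a-3p: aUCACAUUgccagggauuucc
hsa-miR-27a-3p: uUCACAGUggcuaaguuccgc
hsa-miR-24-3p: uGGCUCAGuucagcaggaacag
hsa-miR-15a-5p: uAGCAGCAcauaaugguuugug
hsa-miR-16-5p: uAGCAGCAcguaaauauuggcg

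In nuclear nascent RNA the members had mean levels of 1.02 to 7.13 RPKM with a median of 1.48. The microRNA host AC020916.1 was highest at a mean of 7.13 RPKM, from 1.85 to 23.1 over the 12 libraries. TBILA, whose name stands for a TGF-beta-induced lncRNA, followed at 5.48 RPKM (2.27 to 16.6), and GAS5-AS1, opposite the snoRNA host gene GAS5, at 4.40 RPKM (0.886 to 9.28). The ranges of these 3 genes overlapped, and each spanned more than the difference between neighbours in the order. Next came AC093673.1 at 3.12 RPKM, TGFB2-AS1 at 2.89, AC010776.2 at 2.60, ARRDC1-AS1 at 2.49, AC009088.1 at 2.48, AL080317.1 at 2.48 and AL080276.2 at 2.29. All 60 members were listed in nuclear nascent RNA, 59 in nuclear input, 58 in whole-cell nascent RNA and 57 in whole-cell input. Of the members, 56 to 58 were listed in each set of knockdown libraries.

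The 4 tables were scaled separately by the authors, so the following ratios between them order the members but were not tested. The mean level in nuclear input over that in whole-cell input had a median of 1.15 over 57 members and 0.838 over 5285 coding genes of at least 1 RPKM in nuclear nascent RNA. The lincRNA genes at the same level, 98 with a ratio, had a median of 1.23. The ratio of nuclear nascent to nuclear input RNA had a median of 0.999 over members and 0.952 over coding genes. The members at the low end of the nuclear to whole-cell order were AC093673.1, at 22.0 RPKM in whole-cell input and 3.96 in nuclear input (ratio 0.180), FGD5-AS1 at 5.63 and 1.75 RPKM (0.311), and AC007620.2 (0.355). AC093673.1 lay between 15.1 and 29.6 RPKM in the 12 whole-cell input libraries and between 2.11 and 5.68 in nuclear input. At the high end were PSMD6-AS2, at 0.432 RPKM in whole-cell input and 1.57 in nuclear input (3.63), AC067751.1 (3.06), AC091053.2 (3.0) and TBILA (2.80). The order thus set apart members with the same nuclear nascent level, FGD5-AS1 and PSMD6-AS2 both being at 1.64 to 1.65 RPKM there.

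**Figure D1:**
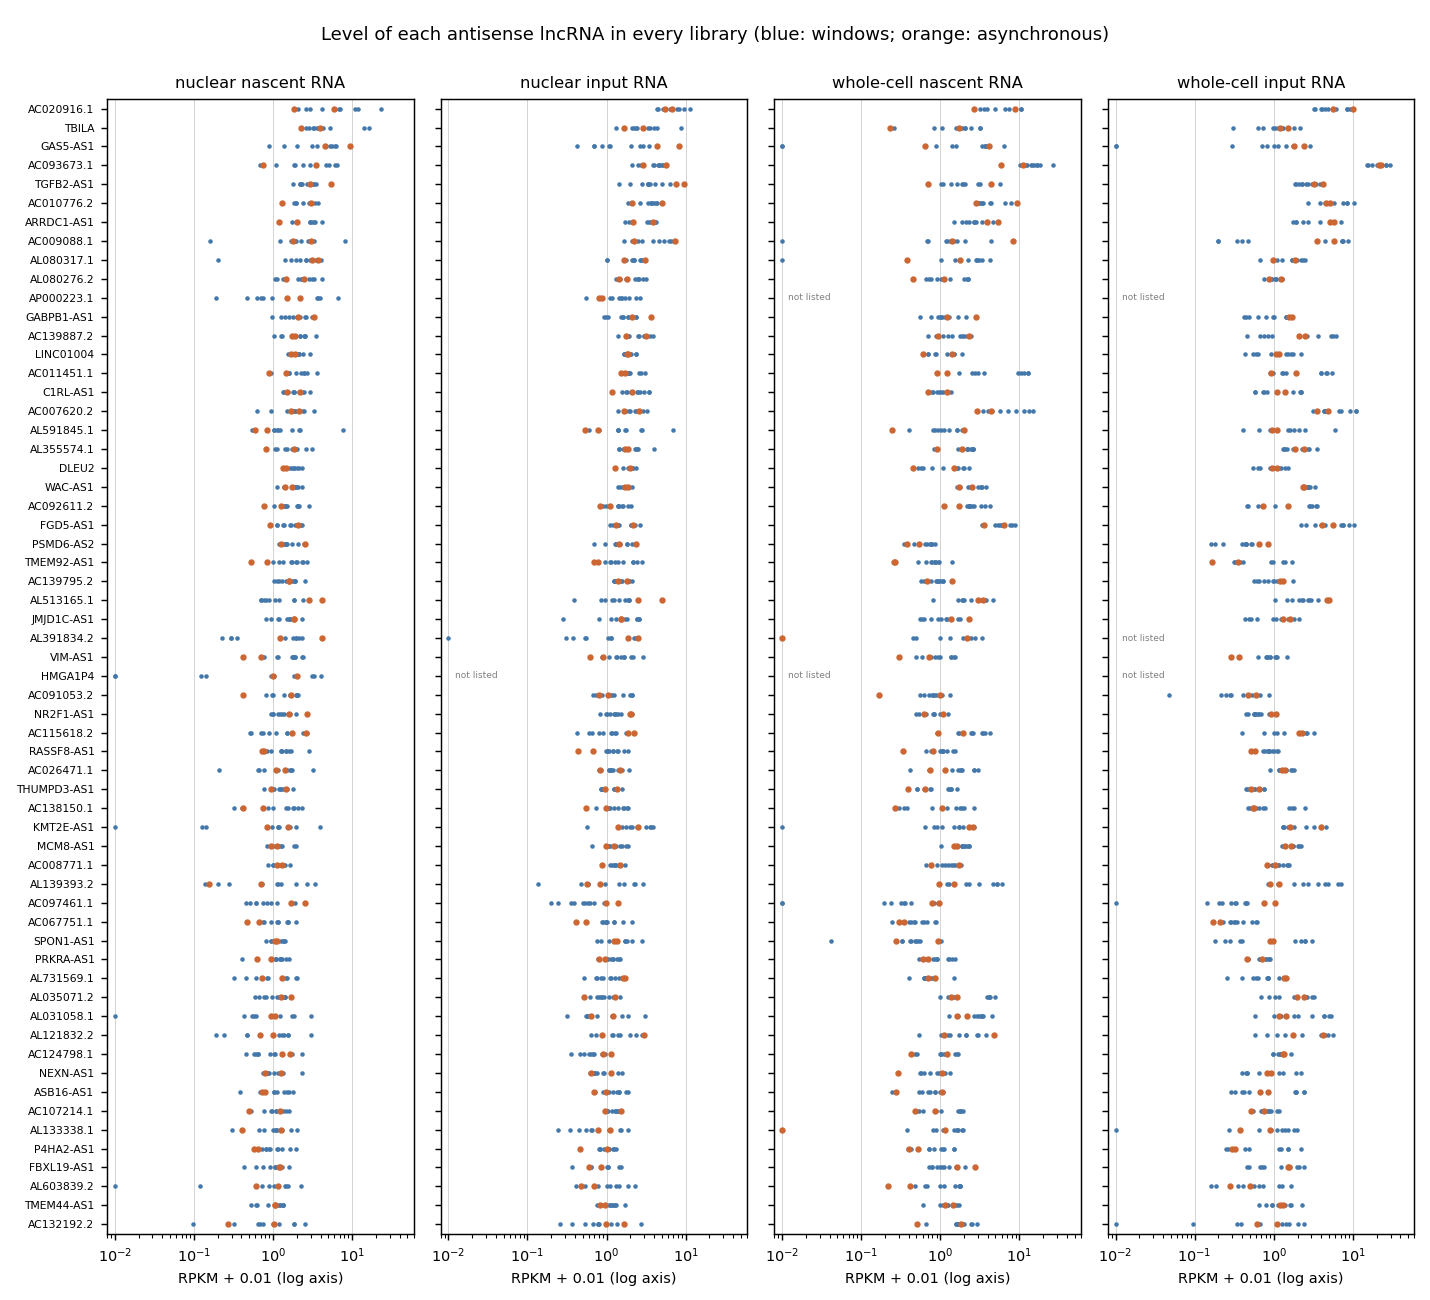
RPKM of each of the 60 antisense lncRNAs (rows, by mean nuclear nascent level) in every library of the 4 kinds of RNA (panels; log axis after adding 0.01), blue for the window libraries and orange for asynchronous cells. AC093673.1 lies to the right of most rows in whole-cell RNA, at 15.1 to 29.6 RPKM in whole-cell input, and at 2.11 to 5.68 RPKM in nuclear input.

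The members called between the S-phase windows and asynchronous cells were few in all 4 kinds of RNA when libraries were not paired. Pairing libraries by replicate number gave more calls in each kind, by far the most in nuclear input. In nuclear nascent RNA, TMEM92-AS1 rose and AL513165.1 fell, 2 of the 60 tested, while 4.5% of all 9784 genes tested passed, 1.95% higher and 2.54% lower (limma on log2(RPKM + 0.25), Benjamini-Hochberg adjusted p under 0.05 over all genes). The members were chosen on the mean of those same 12 nuclear nascent libraries, 10 of them from windows. This favours genes high in the windows, so a rise there is not independent of the choice. In nuclear input RNA, RASSF8-AS1 rose, 1 of 59, against 4.57% of all genes, 1.96% higher. With the replicate number as a block, since same-numbered libraries of nuclear input varied together, 12 members rose and 10 fell, 22 of 59, against 34.4% of all genes. In whole-cell nascent RNA 0 of 58 passed (0.406% of all genes) and 11 had an unadjusted p under 0.05. In whole-cell input 0 of 57 passed (0.0305% of all genes) and 8 had an unadjusted p under 0.05. Cells in the windows had been treated with mimosine and asynchronous cells had not, so S phase and the treatment cannot be told apart. In bulk RNA, fewer cells making a transcript and less of it per cell cannot be told apart either.

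TMEM92-AS1 (chr17:50281579-50287855) lies next to the membrane protein gene TMEM92 (chr17:50271406-50281485) without overlapping it. It was at 0.837 and 0.523 RPKM in the asynchronous nuclear nascent libraries and at 1.00 to 2.72 RPKM, median 1.84, in the windows. Both asynchronous values are below the 1 RPKM that made the list, so its place there rests on the windows. All 10 window libraries were above both asynchronous ones, as in 5.37% of all genes. The log2 difference was 1.13 ± 0.26 (SE, adjusted p = 0.0433), and it was 1.08 within libraries numbered 1 and 1.18 within those numbered 2. TMEM92 itself was higher by 0.73 ± 0.26 without passing (adjusted p = 0.154). In nuclear input RNA, where the groups did not overlap either, TMEM92-AS1 rose with the replicate number kept as a block (0.93 ± 0.17, adjusted p = 0.00375).

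AL513165.1 (ENSG00000234160) was at 4.12 and 2.86 RPKM in asynchronous cells and at 0.689 to 2.38 RPKM in the windows, again with no overlap (9.52% of all genes were lower without overlap). It fell by 1.43 ± 0.27 on the log2 scale (adjusted p = 0.0219), by 1.75 in libraries numbered 1 and by 1.11 in those numbered 2. Both calls in nuclear nascent RNA were lost without asynchronous replicate 1 or 2: the adjusted p of AL513165.1 was then 0.157 to 0.260. That of TMEM92-AS1 was 0.0520 to 0.403 in the 8 of 12 fits without 1 library in which it no longer passed.

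VIM-AS1 (chr10:17214239-17229985) starts inside the gene of vimentin, an intermediate filament protein of mesenchymal cells, and overlaps it head to head. It was at 0.701 and 0.412 RPKM in asynchronous nuclear nascent RNA and at 0.772 to 2.38 RPKM in the windows. The log2 difference of 1.23 ± 0.30 missed the threshold (adjusted p = 0.0535). Both asynchronous values are below the 1 RPKM that made the list, so the place of VIM-AS1 there rests on the windows. VIM was at 221 and 200 RPKM in asynchronous cells and at 94.0 to 232 RPKM in the windows, a difference of -0.70 ± 0.30 (adjusted p = 0.223). The mean log2 ratio of VIM-AS1 to VIM was -8.05 in asynchronous cells and -6.12 ± 0.76 (SD, n = 10) in the windows, so the antisense transcript was far below its partner throughout.

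**Figure D2:**
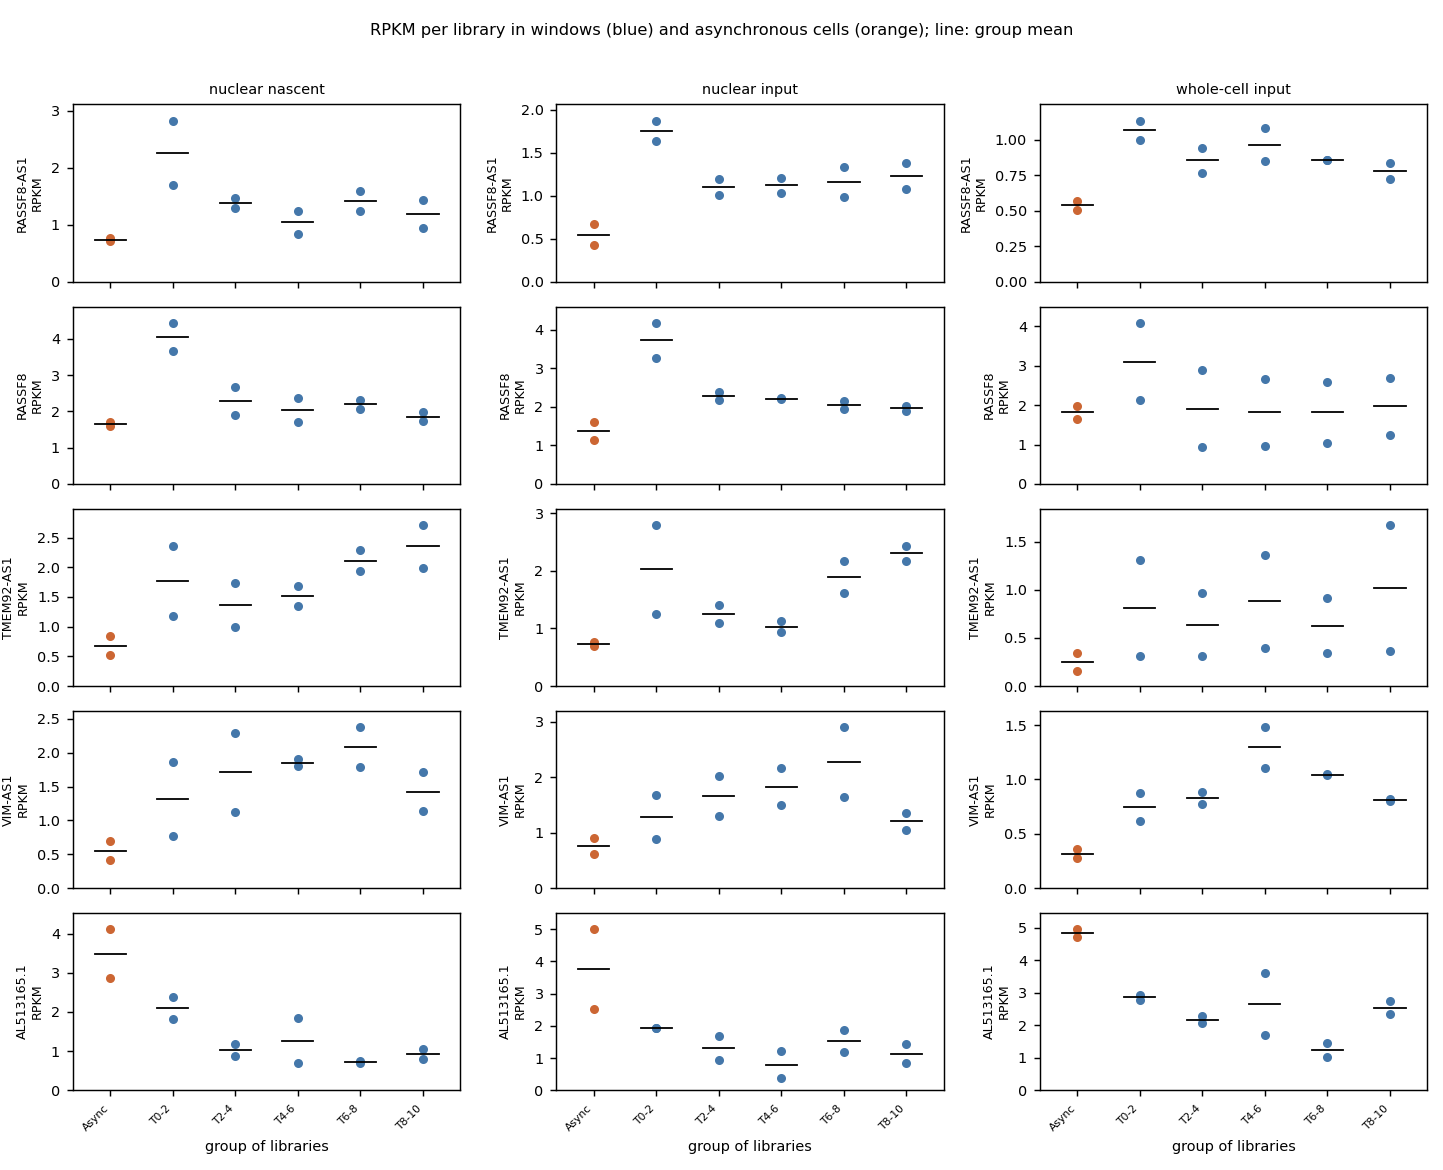
RPKM per library (points; lines are group means of 2) of RASSF8-AS1, its partner RASSF8, TMEM92-AS1, VIM-AS1 and AL513165.1 in asynchronous cells (orange) and the 5 windows (blue), for nuclear nascent, nuclear input and whole-cell input RNA. RASSF8-AS1 in nuclear input lies at 0.986 to 1.87 RPKM in the windows, above 0.671 and 0.425 in asynchronous cells, and RASSF8 shows its highest values at T0-2.

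In nuclear input RNA, RASSF8-AS1 (chr12:25954654-25959442), whose partner RASSF8 encodes a Ras association domain protein, was at 0.671 and 0.425 RPKM in asynchronous cells and at 0.986 to 1.87 RPKM in the windows, with no overlap (6.65% of all genes were higher without overlap). It rose by 0.93 ± 0.17 on the log2 scale (adjusted p = 0.0215). RASSF8 rose with it, from 1.6 and 1.15 RPKM to between 1.89 and 4.18 RPKM (0.71 ± 0.15, adjusted p = 0.0385). Both genes were highest at T0-2, where RASSF8-AS1 was at 1.87 and 1.63 RPKM and RASSF8 at 4.18 and 3.26. The call of RASSF8-AS1 was lost without either asynchronous library (adjusted p = 0.0929 to 0.243) and under quantile normalization (adjusted p = 0.0507).

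Most calls with the block were not made without it. TGFB2-AS1 (chr1:218344196-218345678), which overlaps the start of the gene of the ligand TGF-beta 2, was at 7.57 and 9.61 RPKM in asynchronous nuclear input and at 1.41 to 6.24 RPKM in the windows. Its log2 difference of -1.32 had an adjusted p of 0.0773 without the block and 0.00272 with it. TGFB2 ran in parallel at 5.24 and 5.68 RPKM in asynchronous cells and 0.868 to 3.91 in the windows (-1.26 ± 0.40, adjusted p = 0.126 without the block). GAS5-AS1 (chr1:173863248-173863941) was at 8.16 and 4.33 RPKM in asynchronous cells and 0.416 to 3.40 in the windows (-1.99, adjusted p = 0.117 without the block and 0.00102 with it). GAS5, a noncoding gene added to the description after its values were seen, fell from 48.7 and 35.3 RPKM to between 9.13 and 29.5 (-1.52 ± 0.32, adjusted p = 0.0384).

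Among the other members that passed with the block, AL591845.1 rose by 1.16 ± 0.16 (adjusted p = 0.0011) and AC067751.1 by 0.96 ± 0.16 (adjusted p = 0.00258). AL513165.1 fell by 1.35 and AL391834.2 by 1.28, and AC097461.1 and AC115618.2 fell by 0.99 and 0.94. AC097461.1 was at 1.39 and 0.986 RPKM in asynchronous cells and 0.192 to 0.931 RPKM in the windows. AC115618.2 was at 2.22 and 1.85 RPKM and 0.417 to 1.76 RPKM. In both the groups did not overlap, and 8.65% of all genes were lower without overlap. NR2F1-AS1, GABPB1-AS1 and AL731569.1 fell by 0.59, 0.75 and 0.64.

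In whole-cell nascent RNA the direction of the members depended on the libraries. Over all of them 41 of 58 differences were above 0, with a median of 0.37, against 5611 of 10096 genes and a median of 0.05. Within libraries numbered 1, 45 of 58 members were higher in the windows, with a median of 0.93 (0.11 over all genes). Within those numbered 2, 35 of 58 were lower, with a median of -0.12 (0.03 over all genes). The largest difference was that of AC011451.1, at 1.22 and 0.908 RPKM in asynchronous cells and, in the windows, at 9.58 to 13.1 RPKM in libraries numbered 1 and 1.72 to 3.61 in those numbered 2. Its log2 difference of 2.16 ± 0.81 did not pass (adjusted p = 0.291). AC009088.1 was at 1.39 and 8.26 RPKM in asynchronous cells and 0 to 4.33 RPKM in the windows (-1.44 ± 0.70, adjusted p = 0.402), so that asynchronous replicate 2 alone was high.

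In whole-cell input, AL139393.2, now MAP3K4-AS1, was at 0.881 and 1.15 RPKM in asynchronous cells and 0.825 to 6.99 RPKM in the windows (1.34 ± 0.57, adjusted p = 0.552). GAS5-AS1 was at 1.78 and 2.37 RPKM and 0 to 2.83 RPKM there (-1.28 ± 0.93, adjusted p = 0.884). Both sets of groups overlapped. Over the members the median difference was -0.03 in whole-cell input, 0.08 in nuclear nascent and 0.10 in nuclear input, against -0.08, -0.01 and 0.00 over all genes. The nuclear nascent median is not independent of the choice of members, which was made on those libraries. Without single libraries the median difference ranged from -0.11 to 0.02 in whole-cell input and from -0.13 to 0.25 in nuclear nascent RNA, so its sign there was not settled, and from 0.06 to 0.17 in nuclear input.

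Between the first and the last window no member passed in nuclear nascent RNA, 0 of 60 against 0.358% of all genes, with 9 at an unadjusted p under 0.05. The largest difference was that of TBILA (chr3:112133423-112135359). It was at 16.6 and 14.1 RPKM at T0-2 and at 5.18 and 2.62 RPKM at T8-10, with all other libraries, asynchronous cells included, between 2.27 and 4.23 RPKM. Its high level was thus seen in the T0-2 libraries alone, and the log2 difference of T8-10 from T0-2 was -1.97 ± 0.34 (adjusted p = 0.0537). It passed without T8-10 replicate 1 (adjusted p = 0.0242) and under quantile normalization (adjusted p = 0.0275). AL139393.2 was at 3.37 and 1.25 RPKM at T0-2 and 0.727 and 0.190 RPKM at T8-10.

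In nuclear input RNA 0 of 59 members differed between T8-10 and T0-2 without the block (0.415% of all genes, 8 members at an unadjusted p under 0.05), and 6 rose and 4 fell with it (22.2% of all genes). TBILA was at 8.73 and 4.01 RPKM at T0-2 and 4.38 and 2.08 at T8-10, and with the block fell by 0.91 ± 0.16 (adjusted p = 0.00746). AL591845.1 was at 2.71 and 6.93 RPKM at T0-2 and 0.799 and 1.68 at T8-10 (-1.70, adjusted p = 0.241 without the block and 0.00199 with it). AL139393.2 was lower by 1.63 with the block (adjusted p = 0.00564). AL391834.2 was at 1.02 and 0 RPKM at T0-2 and 2.32 and 1.12 at T8-10 (1.74, adjusted p = 0.459 and 0.0334). Without single libraries and with no block its difference ranged from 0.56, without T0-2 replicate 2, to 2.91, without T0-2 replicate 1. That of AL591845.1 ranged from -2.33 to -1.06 in the same way. AC091053.2 rose by 1.26 with the block, and AC097461.1, AC115618.2, AL080276.2 and AC139887.2 by 0.81, 0.79, 0.72 and 0.65.

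In synchronised control cells 0 of 56 members differed between S6 and S0 (0.0741% of all genes, 8 members at an unadjusted p under 0.05). SPON1-AS1 was at 3.69 and 1.33 RPKM at S0 and 0.838 and 0.380 at S6 (-1.59 ± 0.47, adjusted p = 0.222). PSMD6-AS2, named after a subunit of the proteasome's regulatory particle, was at 2.15 and 1.26 RPKM at S0 and 0.440 and 0.406 at S6 (-1.5 ± 0.50, adjusted p = 0.305). In both, each S0 library was above each S6 library. The same control libraries, as scaled in the LUCAT1 and MIAT tables, gave 0 calls of 57 and of 55 (0.871% of all genes, 0.527% higher, and 0.997% of all genes).

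In the knockdowns, calls were made in synchronised LUCAT1 and in both MIAT comparisons. Over the 13 comparisons 34 of the 60 members passed at least once, 31 of them in a knockdown, and 26 passed in none. The share of all genes that passed at least once was not computed, and 43.7% of them passed in asynchronous MIAT knockdown alone. TGFB2-AS1 and AL591845.1 passed in 3 comparisons each. The knockdowns of each state were set against the same control libraries, so values of different targets are given side by side and their likeness is not a result.

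**Figure D3:**
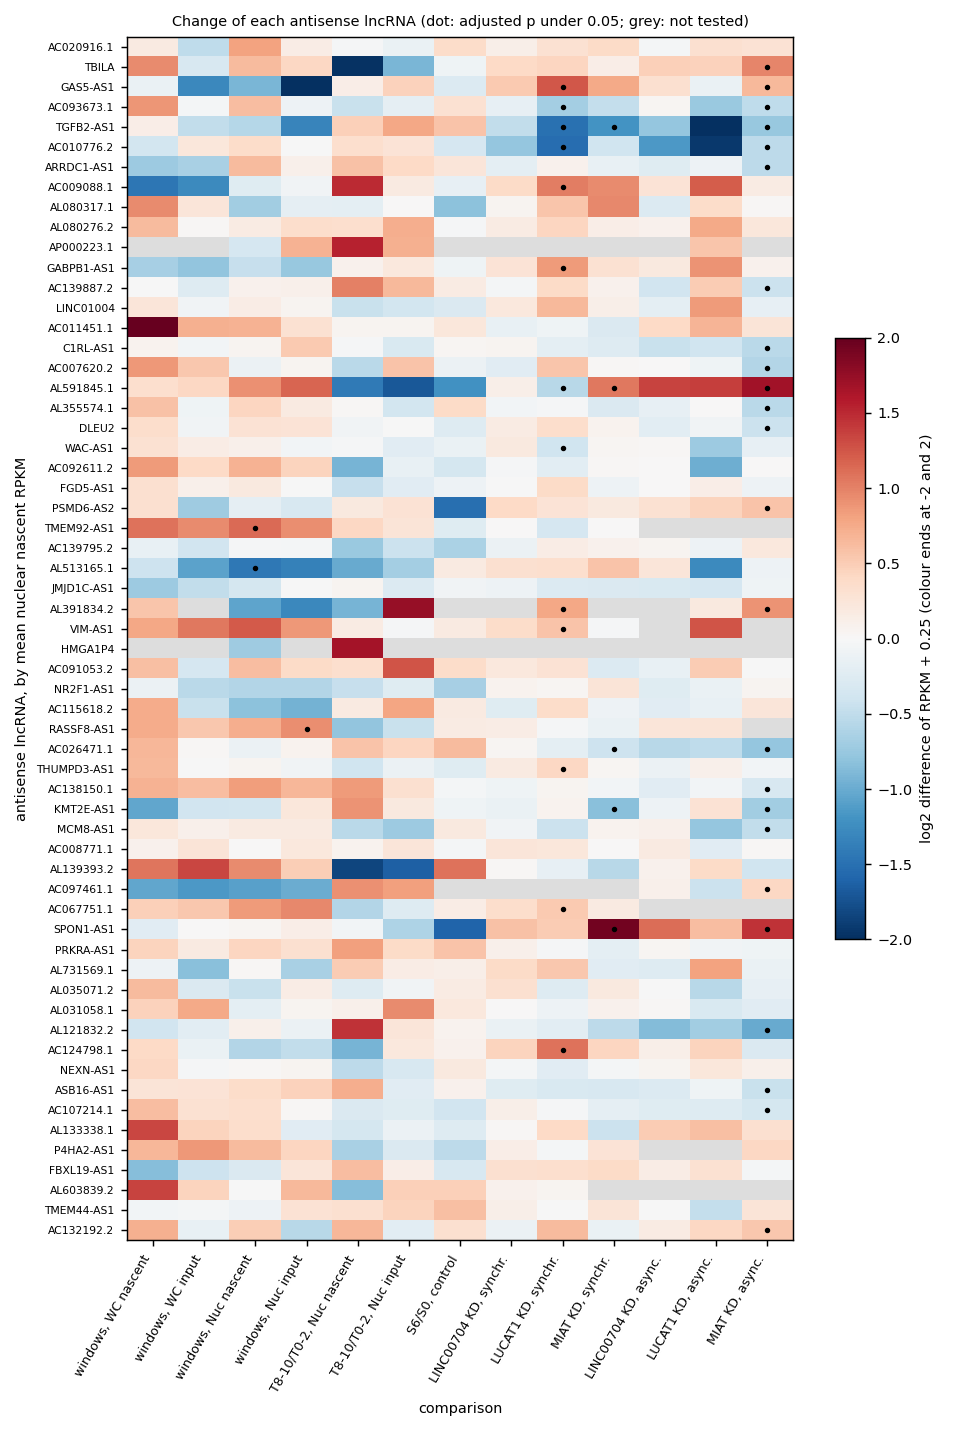
Log2 difference of RPKM + 0.25 for each member (rows, by mean nuclear nascent level) in the 13 comparisons (columns), red for higher and blue for lower, with a dot where the adjusted p was under 0.05 and grey where the member was not tested. Dots are most frequent in the column of MIAT knockdown in asynchronous cells, with 24, and of LUCAT1 knockdown in synchronised cells, with 13.

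LUCAT1 knockdown in synchronised cells was followed by a rise of 8 and a fall of 5 of the 57 members tested, against 27.2% of all genes, 19% higher and 8.12% lower. AC010776.2, TGFB2-AS1, AC093673.1, AL591845.1 and WAC-AS1 fell. GAS5-AS1, AC124798.1, AC009088.1, GABPB1-AS1, AL391834.2, VIM-AS1, AC067751.1 and THUMPD3-AS1 rose. The median difference was 0.08 over members and 0.11 over all genes. Under quantile normalization, which brought the all-gene median to -0.01, 4 members rose and 8 fell, 9 of the 13 calls being shared.

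AC010776.2 (ENSG00000267774) lay between 3.99 and 9.55 RPKM, median 5.86, in the 8 control libraries and between 1.33 and 2.86 RPKM, median 1.72, in the 8 knockdown libraries. The groups did not overlap (0.932% of all genes were lower without overlap), and it fell by 1.52 ± 0.17 on the log2 scale (adjusted p = 0.000398). TGFB2-AS1 lay between 5.35 and 22.5 RPKM, median 8.27, in control cells and between 2.38 and 10.3 RPKM, median 2.59, in the knockdown. It fell by 1.49 ± 0.32 (adjusted p = 0.00809), with 7 of the 8 knockdown libraries at or below 3.07 RPKM and S6 library 1 at 10.3. TGFB2 itself lay at 1.47 to 3.51 RPKM in control cells and 1.69 to 3.02 RPKM in the knockdown and differed by -0.15 (adjusted p = 0.50). WAC-AS1 lay at 1.94 to 3.35 RPKM in control cells and 1.61 to 2.51 RPKM in the knockdown and fell by 0.40 ± 0.13 (adjusted p = 0.0439). Its divergent partner WAC, an adaptor protein of histone ubiquitination, differed by 0.42 (adjusted p = 0.0852).

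AC124798.1 lay between 0.867 and 1.34 RPKM in control cells and between 1.84 and 3.95 RPKM in the knockdown, with no overlap (4.18% of all genes were higher without overlap), and rose by 1.09 ± 0.16 (adjusted p = 0.00137). AC067751.1 also did not overlap, at 0.285 to 0.408 and 0.456 to 0.808 RPKM, and rose by 0.52 ± 0.11 (adjusted p = 0.00783). GAS5-AS1 lay at 0.412 to 1.79 RPKM, median 1.12, in control cells and 1.38 to 4.34 RPKM, median 2.62, in the knockdown (1.23 ± 0.19, adjusted p = 0.0015). GAS5 rose as well, from 6.61 to 22.0 RPKM in control cells to 22.8 to 62.1 RPKM in the knockdown (1.30 ± 0.27, adjusted p = 0.00741). GABPB1-AS1 (chr15:50354174-50358312) rose by 0.85 (adjusted p = 0.0249), while GABPB1, a subunit of the GA-binding protein, differed by 0.31 (adjusted p = 0.104). VIM-AS1 rose by 0.57 (adjusted p = 0.0436) and VIM differed by 0.26 (adjusted p = 0.431).

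The remaining members that passed were AC009088.1, higher by 1.02, AL391834.2 by 0.78 and THUMPD3-AS1 by 0.41, and AC093673.1 and AL591845.1, lower by 0.68 and 0.55. The number of calls was 22 without LUCAT1 knockdown S0 library 2. It was 7 without control S0 replicate 2 or S2 replicate 1, and 8 without control S4 replicate 1, control S6 replicate 1, knockdown S2 library 1 or knockdown S4 library 2. AC010776.2, TGFB2-AS1, GAS5-AS1, AC124798.1 and AC093673.1 passed in every fit that left out 1 library, whereas AL391834.2 did not pass in 11 such fits, GABPB1-AS1 in 4 and AC009088.1 in 1. The other called members, AL591845.1, VIM-AS1, AC067751.1, THUMPD3-AS1 and WAC-AS1, were not followed singly in these fits. The share of all genes called in them is not given here.

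MIAT knockdown in synchronised cells was followed by a rise of SPON1-AS1 and AL591845.1 and a fall of TGFB2-AS1, KMT2E-AS1 and AC026471.1, 5 of 55 members tested against 7.63% of all genes, 4.84% higher and 2.79% lower. KMT2E-AS1 lay between 2.07 and 5.32 RPKM, median 3.41, in control cells and between 0.813 and 2.86 RPKM, median 1.85, in the knockdown. At each of the 4 points both knockdown libraries were below both control libraries. It fell by 0.84 ± 0.17 (adjusted p = 0.00943). KMT2E, which encodes a SET domain protein and starts on the far side of the cgg-rich stretch shown above, differed by 0.38 (adjusted p = 0.0918).

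SPON1-AS1 (ENSG00000254418) lay between 0.380 and 3.69 RPKM, median 0.824, in control cells and between 1.06 and 10.8 RPKM, median 5.30, in the MIAT knockdown. It rose by 1.94 ± 0.41 (adjusted p = 0.0128), with 6 of the 8 control libraries below every knockdown library. The exceptions were the S0 controls at 3.69 and 1.33 RPKM. SPON1, which encodes the extracellular protein spondin 1, was below the filter on low values and was not tested, at 0.0208 to 0.0892 RPKM in control cells and 0.0719 to 0.584 RPKM in the knockdown. AL591845.1 (ENSG00000116883) lay between 1.42 and 4.47 RPKM, median 2.94, and between 2.61 and 9.12 RPKM, median 6.55, and rose by 1.05 ± 0.23 (adjusted p = 0.0155). TGFB2-AS1 lay between 2.63 and 8.04 RPKM, median 3.57, in the MIAT knockdown and fell by 1.19 ± 0.30 (adjusted p = 0.0322). TGFB2 differed by 0.01 (adjusted p = 0.978). AC026471.1 fell by 0.41 ± 0.10 (adjusted p = 0.0318).

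The call of TGFB2-AS1 in synchronised MIAT knockdown was lost in 10 of the 16 fits that left out 1 library (adjusted p up to 0.0985) and under quantile normalization (adjusted p = 0.0607). That of AC026471.1 was lost in 9 such fits and that of AL591845.1 in 1, without control S0 replicate 2 (adjusted p = 0.0536). The count was 2 without that library, 3 without control S4 replicate 1, and 9 without control S4 replicate 2 or knockdown S4 library 2. KMT2E-AS1 and SPON1-AS1 passed in all 16 fits.

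**Figure D4:**
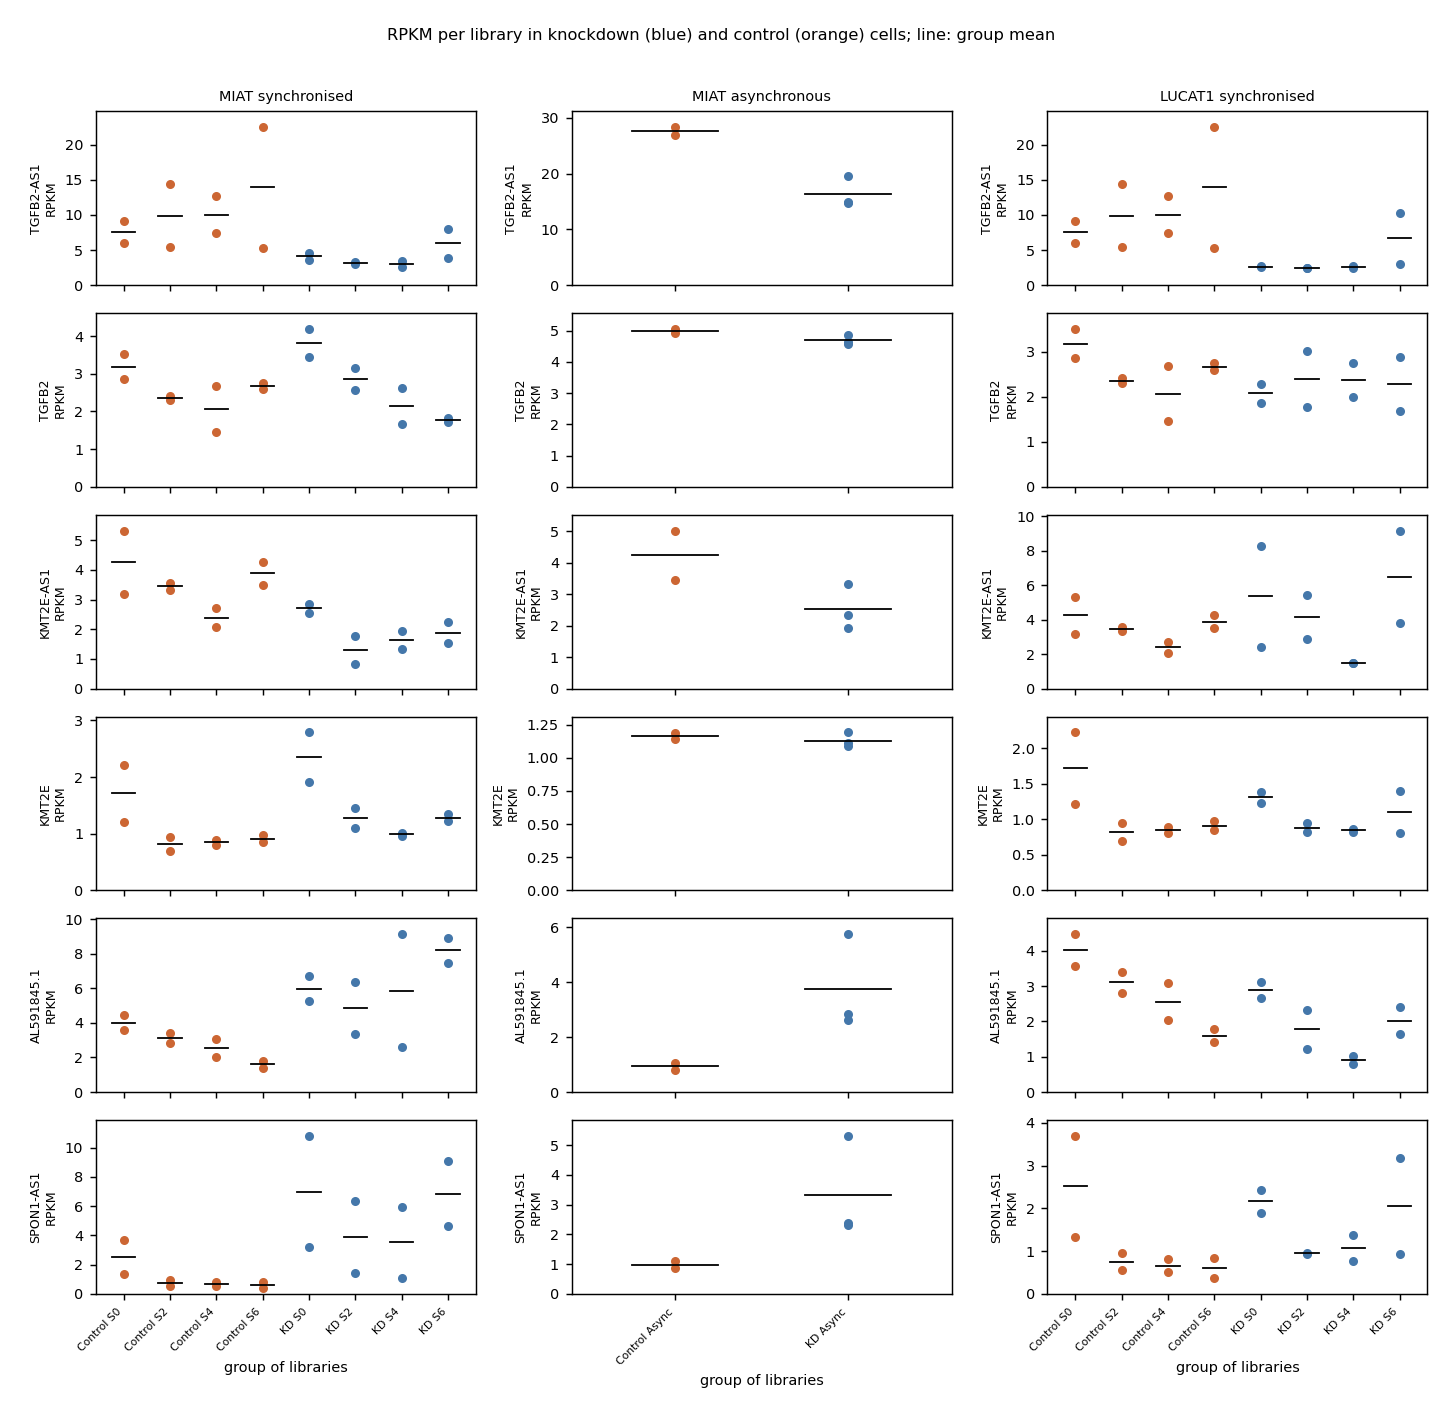
RPKM per library (points; lines are group means) of TGFB2-AS1, TGFB2, KMT2E-AS1, KMT2E, AL591845.1 and SPON1-AS1 in control (orange) and knockdown (blue) cells, for MIAT in synchronised and asynchronous cells and LUCAT1 in synchronised cells. In synchronised cells TGFB2-AS1 has a median of 8.27 RPKM in controls and of 3.57 and 2.59 in the MIAT and LUCAT1 knockdowns. The ranges of knockdown and control libraries overlap there for TGFB2-AS1 and for TGFB2.

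MIAT knockdown in asynchronous cells was followed by a rise of 8 and a fall of 16 of 53 members, against 43.7% of all genes, 12.6% higher and 31.1% lower. The median difference was -0.09 over members and -0.12 over all genes, and under quantile normalization, with an all-gene median of -0.03, 12 rose and 10 fell. AL591845.1 was at 1.06 and 0.817 RPKM in control cells and 5.74, 2.86 and 2.62 in the knockdown (1.67 ± 0.30, adjusted p = 0.00553). SPON1-AS1 was at 1.11 and 0.860 RPKM and 5.31, 2.38 and 2.33 (1.45 ± 0.33, adjusted p = 0.012). TBILA was at 0.787 and 0.901 RPKM and 2.12, 1.98 and 1.64 (0.98 ± 0.12, adjusted p = 0.00154). In these 3 genes each knockdown library was above both controls, as in 22.9% of all genes. AL391834.2, GAS5-AS1, PSMD6-AS2, AC132192.2 and AC097461.1 rose by 0.90, 0.65, 0.57, 0.54 and 0.42.

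Of the members that fell in asynchronous MIAT knockdown, AL121832.2 was at 4.30 and 5.52 RPKM in control cells and 2.22, 2.51 and 2.2 in the knockdown (-1.0 ± 0.13, adjusted p = 0.00172). AC026471.1 was at 2.56 and 2.36 RPKM and 1.5, 1.11 and 1.39 (-0.78 ± 0.12, adjusted p = 0.00354). TGFB2-AS1 was at 28.3 and 26.9 RPKM and 19.6, 14.9 and 14.7 (-0.75 ± 0.15, adjusted p = 0.00728), and TGFB2 differed by -0.08 (adjusted p = 0.482). KMT2E-AS1 was at 5.01 and 3.45 RPKM and 1.93, 3.34 and 2.33 (-0.70 ± 0.23, adjusted p = 0.0462), and KMT2E differed by -0.04 (adjusted p = 0.733). All knockdown values of these 4 genes were below both controls, as in 44.8% of all genes. DLEU2, the host of miR-15a and miR-16-1, was at 0.879 and 0.853 RPKM and 0.476, 0.585 and 0.696 (-0.43 ± 0.12, adjusted p = 0.0257).

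The other 11 that fell, AC007620.2, C1RL-AS1, AL355574.1, AC010776.2, ARRDC1-AS1, AC093673.1, MCM8-AS1, ASB16-AS1, AC139887.2, AC107214.1 and AC138150.1, did so by 0.32 to 0.59 on the log2 scale. All 5 calls in synchronised MIAT knockdown (100%) were among the 24 in asynchronous cells (20.8% of these) in the same direction. The libraries of the 2 states are separate. In asynchronous cells 43.7% of all genes were called, 12.6% higher and 31.1% lower. How many genes other than members were called in both states was not computed, so the 100% has no share to be set against. In the asynchronous fits the count was 9 without control replicate 1 and 15 without knockdown replicate 2. KMT2E-AS1 was not called without control replicate 1, knockdown replicate 1 or knockdown replicate 3, or with no filter or under quantile normalization (adjusted p = 0.0735 and 0.157). TGFB2-AS1 was not called without control replicate 1 (adjusted p = 0.0532) or under quantile normalization (adjusted p = 0.0672), nor SPON1-AS1 without control replicate 2 (adjusted p = 0.0603).

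LUCAT1 knockdown in asynchronous cells gave 0 calls of 55 by limma, with 15 at an unadjusted p under 0.05 and 0.209% of all genes called. It gave 29, 18 higher and 11 lower, without LUCAT1 knockdown replicate 1, a fit for which the share of all genes called is not given here. TGFB2-AS1 was at 29.4 and 27.8 RPKM in control cells and 12.7, 4.13 and 5.18 in the knockdown (-2.09 ± 0.45, adjusted p = 0.105, and 0.000275 without replicate 1). TGFB2 was at 5.09 and 5.23 RPKM and 3.29, 1.78 and 1.36 (-1.26 ± 0.34, adjusted p = 0.133). AC010776.2 was at 6.33 and 5.84 RPKM and 2.88, 0.865 and 1.09 (-1.92 ± 0.44, adjusted p = 0.11, and 0.000291 without replicate 1). In both members replicate 1 lay between the controls and the other two knockdown libraries. By the authors' deposited table, 17 members rose and 10 fell of 58 at an FDR under 0.05, where 44.6% of genes passed.

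LINC00704 knockdown gave 0 calls of 56 members in synchronised cells (0.0212% of all genes, 6 members at an unadjusted p under 0.05) and 0 of 52 in asynchronous cells (0.0557% of all genes, 8 members). In synchronised cells 5 members were called without LINC00704 knockdown S0 library 2. The share of all genes called in that fit is not given here. With all libraries, AC010776.2 and SPON1-AS1 had the largest synchronised differences, -0.77 ± 0.21 (adjusted p = 0.265) and 0.59 ± 0.23 (adjusted p = 0.270). In asynchronous cells AC010776.2 was at 6.14 and 5.63 RPKM in controls and 2.67, 2.26 and 2.61 in the knockdown (-1.15 ± 0.16, adjusted p = 0.0889). AL591845.1 was at 1.06 and 0.815 RPKM and 4.84, 1.55 and 2.78 (1.36 ± 0.39, adjusted p = 0.239). Neither set of groups overlapped, and of all genes 25.2% were lower and 7.32% higher without overlap. In the authors' deposited tables, 2 members rose and 1 fell of 56 for LINC00704 (7.41% of genes), and 11 rose and 17 fell of 57 for MIAT (56.8% of genes).

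Side by side, AC010776.2 differed by -0.77 in synchronised LINC00704 and -1.52 in synchronised LUCAT1 knockdown. It differed by -1.15 in asynchronous LINC00704 and -1.92 in asynchronous LUCAT1 knockdown. Of these the synchronised LUCAT1 value passed. AC010776.2 also passed in asynchronous MIAT knockdown, where it fell and 31.1% of all genes were lower. AL591845.1 fell in synchronised LUCAT1 knockdown and rose in both MIAT comparisons. In asynchronous LUCAT1 cells it was at 1.09 and 0.846 RPKM in controls and 2.18, 3.02 and 3.72 in the knockdown (1.38 ± 0.25, adjusted p = 0.0814). The difference between its synchronised and asynchronous LUCAT1 values was not tested, since the tables were scaled separately.

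In nuclear input RNA 1 member and 2 partners of 19 named pairs passed, against 4.57% of all genes, and RASSF8-AS1 passed with its partner. In synchronised LUCAT1 knockdown 4 members and 3 partners of 19 named pairs passed, against 27.2% of all genes, and 0 pairs passed on both sides. These counts are too small to show whether joint calls were rarer than separate ones would give. In synchronised MIAT knockdown 2 members and 0 partners of 18 pairs passed, against 7.63% of all genes. In asynchronous MIAT knockdown 6 members and 4 partners of 15 pairs passed, against 43.7% of all genes, 31.1% lower. With so many genes lower, a joint fall there does not set a pair apart. ARRDC1-AS1, opposite an arrestin domain gene, passed with its partner, falling by 0.52 while ARRDC1 fell by 0.46. Among members paired by current symbol, AC139887.2 and PCGF3, a polycomb RING finger gene, fell by 0.42 and 0.40 in asynchronous MIAT knockdown. AC093673.1 and FAM131B fell by 0.51 and 0.58 there. In RefSeq both lie on the minus strand and AC093673.1 lies within FAM131B, so strand does not separate their reads. Partners called alone were NR2F1, FBXL19 and TMEM44, lower by 0.47, 0.80 and 0.59 in asynchronous MIAT knockdown. In synchronised LUCAT1 knockdown C1RL, P4HA2 and FBXL19 were lower by 0.48, 0.47 and 0.67.

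**Figure D5:**
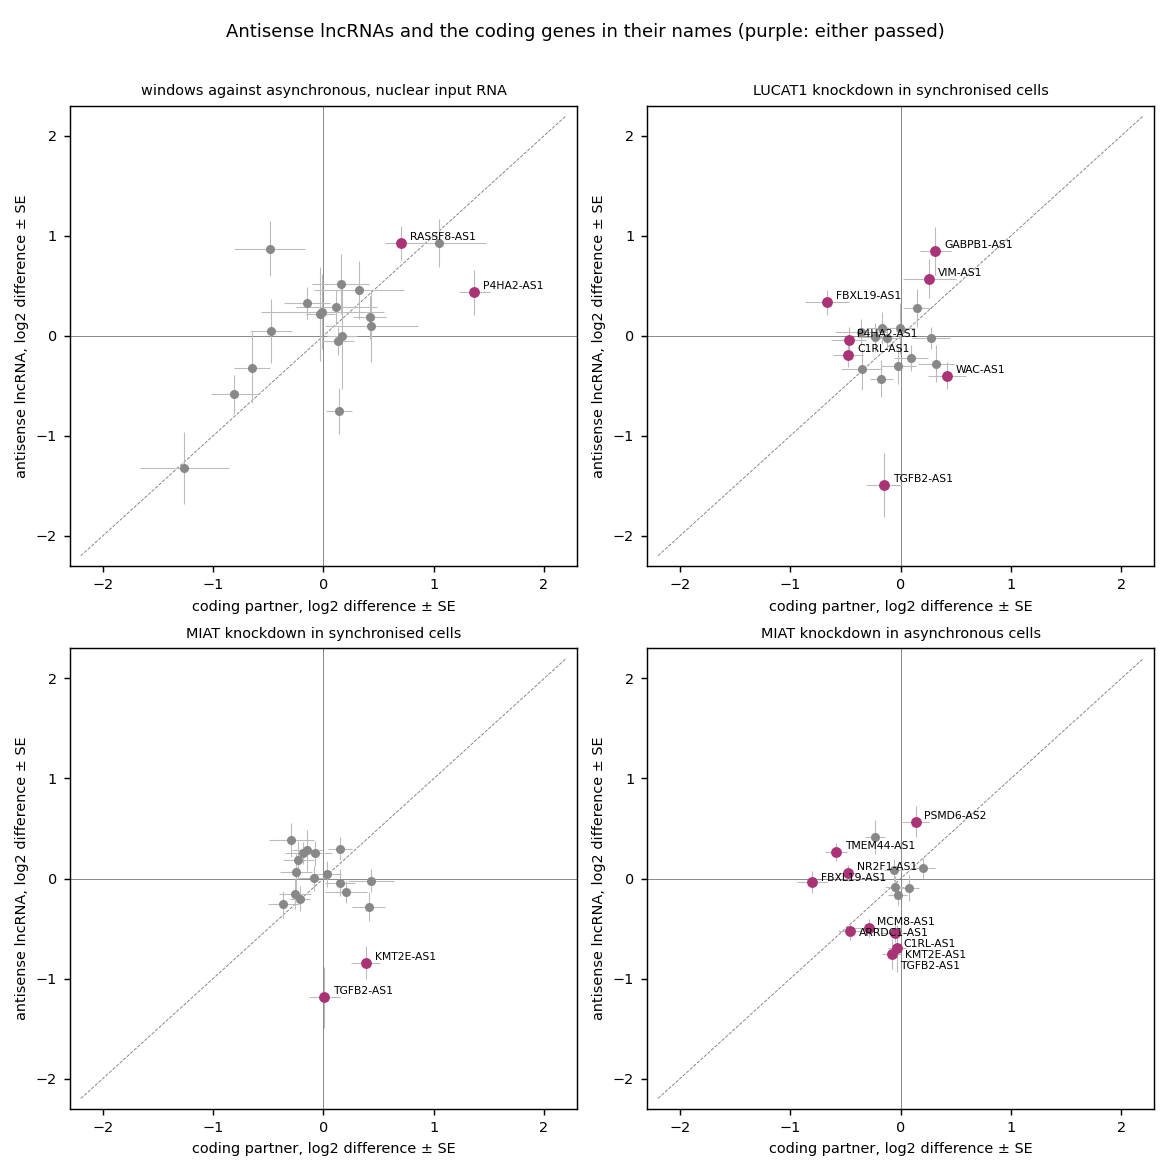
Log2 difference ± SE of the antisense lncRNA (vertical) against that of the coding gene in its name (horizontal) for each named pair in 4 comparisons, purple where either passed, with a dashed line where both change alike. TGFB2-AS1 lies near 0 on the horizontal axis in the 3 knockdown panels, where TGFB2 differs by -0.15, 0.01 and -0.08, and RASSF8-AS1 lies near the dashed line.

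Partners and members had the same sign of difference in 17 of 18 pairs in whole-cell nascent RNA, 12 of 19 in whole-cell input, 12 of 19 in nuclear nascent and 11 of 19 in nuclear input RNA. In knockdowns it was 11 of 19 pairs for synchronised LUCAT1, 5 of 18 for synchronised MIAT and 10 of 15 for asynchronous MIAT. Within a library the antisense lncRNA was on average above its partner, per length of gene span, in 5 of 19 pairs in nuclear nascent RNA. How strand entered the counting of the window libraries is not stated, so where a pair overlaps its reads cannot be told apart there.

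The log2 ratio of antisense to partner was compared between windows and asynchronous cells by an exact two-sided permutation test, whose smallest possible p is 0.0152. Several pairs would have to reach that value together to pass after adjustment, so the test could hardly call a single pair, and 0 pairs passed in the 4 tables. The lowest adjusted p was 0.0960, reached in nuclear input by VIM-AS1, GABPB1-AS1 and P4HA2-AS1, whose groups did not overlap there. The ratio of VIM-AS1 to VIM was higher in the windows by 1.36 in nuclear input and by 1.93 in nuclear nascent RNA. That of GABPB1-AS1 to GABPB1 was lower by 0.89 in nuclear input, GABPB1-AS1 being at 3.64 and 2.07 RPKM in asynchronous cells and 0.916 to 2.33 in the windows and GABPB1 at 0.772 and 0.718 and 0.624 to 1.01. P4HA2-AS1 was at 1.00 and 0.449 RPKM and 0.782 to 1.29, while P4HA2, a subunit of the enzyme that hydroxylates collagen prolines, rose from 0.772 and 0.919 to between 1.78 and 3.69 RPKM (1.37 ± 0.14, adjusted p = 0.0044 by limma).

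The other large ratio differences in nuclear nascent RNA were -0.55 for P4HA2-AS1, -0.52 for GABPB1-AS1, 0.48 for PRKRA-AS1 (now CHROMR), 0.47 for PSMD6-AS2, 0.40 for TMEM92-AS1, -0.38 for KMT2E-AS1 and -0.36 for JMJD1C-AS1. In each of these 7 the groups overlapped. In whole-cell nascent RNA the ratio of TMEM92-AS1 to TMEM92 was higher by 1.02 and that of GABPB1-AS1 to GABPB1 was lower by 0.58. In whole-cell input that of ARRDC1-AS1 to ARRDC1 was lower by 0.75. In each the groups did not overlap (exact permutation p = 0.0152 for each, adjusted p = 0.136, 0.136 and 0.288).

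Factors of nuclear RNA decay and of transcription termination, which act on antisense transcripts in general, were followed as a list of 22 to 24 tested genes. In synchronised LUCAT1 knockdown 10 of 23 rose and 0 fell, with a median of 0.40 (27.2% of all genes called, median 0.11). PCF11, a termination factor, rose by 1.41 and ZCCHC8 of the nuclear exosome targeting complex by 0.70. In synchronised MIAT knockdown PCF11 and ZCCHC8 rose, by 0.90 and 0.50, 2 of 22, where 7.63% of all genes were called. In asynchronous MIAT knockdown these 2 rose by 0.36 and 0.32 and 8 of 23 fell, among them INTS1 of the Integrator complex by 1.02 and the exosome subunit EXOSC4 by 0.80, where 43.7% of all genes were called and 31.1% fell. In the windows NCBP2 and EXOSC2 fell in nuclear nascent RNA, 2 of 24 against 4.5% of all genes, and EXOSC4 in nuclear input, 1 of 23 against 4.57%. Their part in the values of the antisense lncRNAs was not tested.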

How the data were processed

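RNA was measured in hTERT-RPE1 cells, and 91 of the 96 samples have a column in the 10 tables of expression values; the 5 chromatin samples were not used here. The deposited values are RPKM computed by the authors and, as tested on the tables, are per genomic span: the length given was within 10% of the RefSeq span for 78.4% of 12514 coding genes. The submitters' processing notes name STAR 2.5.3, featureCounts 1.6.1, edgeR and HOMER 4.10.3 for all samples, Bowtie2 2.3.4.3 for 85 of 96, and the hg38 build. The authors' deposited tables for asynchronous knockdowns also hold log2 fold changes and FDR-adjusted p-values, which are quoted only where named as such. How nascent RNA was captured, how strand was used in counting, and the unit of the T and S labels are not stated in the labels used. Each table was scaled on its own, and comparisons were made within a table.

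Differences were fitted with limma 3.58.1 (R 4.3.3; trended empirical Bayes) on log2(RPKM + 0.25) over genes that reached 0.5 RPKM in 2 or more libraries, with Benjamini-Hochberg adjustment over all genes tested; a fold change on this scale understates that of low genes. The 5 window means were averaged and set against asynchronous cells (10 against 2 libraries), and the 4 points of each synchronised knockdown against control (8 against 8). Asynchronous knockdowns were 3 against 2. The scripts were tested on simulated data. Ratios of antisense to partner used exact two-sided permutation tests adjusted over pairs. The alternatives were pseudocounts of 0.1 and 1, no filter, quantile normalization, the replicate number as a block and leaving out each library. In nuclear input RNA the deviations of same-numbered libraries from their group means correlated in all 15 pairs of groups (0.627 to 0.861), so blocked values are given beside the results; the pairing comes from the data, as the labels give only numbers.

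The members and lists were chosen with earlier results of these data known. Genes were named by rule: the 10 members highest in nuclear nascent RNA, per comparison up to 8 called members with the largest difference or else the 2 largest, up to 8 pairs with the largest ratio change, the 3 genes on each side of the threshold, and the partners of these. GAS5, SPON1, DLEU2, VIM-AS1, members passing only with the block, called members beyond the first 8 and the extremes of the nuclear to whole-cell order were named after their values were seen, and the within-number values and the block on column numbers were added then. Sequences and coordinates are from RefSeq (GRCh38.p14).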

Additional observations from a re-analysis of the deposited data

How the results depend on the processing

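Members followed singly, up to 8 called ones or else the 2 largest differences per comparison, kept their direction there under the alternatives run. The other named members of a comparison were not followed in this way. In whole-cell nascent RNA, GAS5-AS1, AL591845.1 and TGFB2-AS1 were higher in the windows within libraries numbered 1 and lower within those numbered 2. The balance of rising and falling members reversed under quantile normalization for synchronised LUCAT1 and asynchronous MIAT. Some medians over members changed sign without single libraries. Against 0 calls, whole-cell nascent RNA gave 1 under quantile normalization and 3 with the replicate block, and whole-cell input gave 1 with the block. Nuclear nascent RNA, with 2 calls, gave 1 with a pseudocount of 1, 1 with no filter and 6 with the block, and 0 to 3 without single libraries; T8-10 against T0-2 there gave 1, against 0, with a pseudocount of 1, under quantile normalization and with the block, and 0 to 1 without single libraries. Nuclear input RNA, with 1 call, gave 2 with a pseudocount of 1 or no filter, 0 under quantile normalization, 22 with the block and 0 to 3 without single libraries, and T8-10 against T0-2 there gave 10 with the block against 0. S6 against S0 gave 4 against 0 in a block over control libraries alone. Against 0 calls, the block gave 3 for asynchronous LINC00704 and 4 for asynchronous LUCAT1. Without single libraries the calls ranged from 0 to 5 for synchronised LINC00704, 7 to 22 for synchronised LUCAT1, 2 to 9 for synchronised MIAT, 0 to 29 for asynchronous LUCAT1 and 9 to 28 for asynchronous MIAT. The calls for synchronised LUCAT1 were 7 to 14 without single control libraries, and 8 without knockdown S2 library 1 or S4 library 2. Apart from nuclear input with the block, the share of all genes called in these alternative fits is not given here. The counts therefore show only how the calls of members moved. The cause of these shifts was not tested.

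Nuclear nascent RNA gave 0 calls without either asynchronous library, and nuclear input 0 without either asynchronous library and 3 without T0-2 replicate 2. TMEM92-AS1 had an adjusted p of 0.0532 with a pseudocount of 1 and 0.0726 with no filter. KMT2E-AS1 in asynchronous MIAT knockdown had 0.135 with the block. AC011451.1 in whole-cell nascent RNA had 0.0226, and TGFB2-AS1 in asynchronous LUCAT1 knockdown 4.21e-05, with the block. Outside nuclear input the correlations of same-numbered libraries had a median of 0.904 in whole-cell input (lowest -0.562), of 0.421 in whole-cell nascent (lowest -0.269) and of 0.197 in nuclear nascent RNA (lowest -0.308). In most pairs of groups they thus varied together, but not in every pair, and the block was kept there as an alternative. The synchronised knockdown columns are numbered up to 3 and the samples 1 and 2, so at most points a column could not be tied to a sample. With the number in the column name as a replicate block, added after the data were seen, calls were 13 for LINC00704, 26 for LUCAT1 and 9 for MIAT (12, 20 and 5 of them higher), and TGFB2-AS1 in MIAT knockdown had an adjusted p of 0.0815. The share of all genes called in these blocked fits is not given here, so the counts do not set the members apart from other genes. Same-numbered synchronised controls correlated from 0.0625 upward. Depth limits members near the filter, which have few reads in a library.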
